A study of Mus musculus with 12 samples.

Results

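The genes described here are the interferon-linked members of the poly(ADP-ribose) polymerase (PARP) family with their ubiquitin ligase partner Dtx3l, and the DNA repair genes Parp1, Parp2 and Parp3. They were chosen by gene symbol, with earlier results of these data known. All 10 were found among the 43629 genes of the count table and passed the filter on low counts. The data are counts of poly(A) RNA in bulk mouse cortical neuronal cultures, from 6 IFNG and 6 Control libraries. The IFNG cultures were under lasting exposure to interferon-gamma, a cytokine of T cells, from a lentivirus that overexpresses its gene, Ifng, added at 7 days in vitro and followed by harvest 10 days later. The labels give all 12 libraries the same transduction text, so what the Control cultures were given is not stated, and strain, age and sex are not given. No label ties a library to its own culture or animal, so p-values measure the spread between these libraries, which may be technical.

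PARP enzymes transfer ADP-ribose from NAD, the cell's redox cofactor, onto proteins and nucleic acids. Parp1 and Parp2 build chains of ADP-ribose at broken DNA and so call in repair proteins, and Parp3 also acts at DNA breaks but adds single units. Most other family members add single units only, several of them are known as interferon-stimulated genes, and in human cells PARP9 forms a stable complex with the ubiquitin ligase DTX3L. Parp9 itself is known mainly for its macrodomains, which bind ADP-ribose.

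Library totals ran from 13875435 to 34239380 counts. IFNG 5 stood apart from the other IFNG libraries over all genes: a chi-square test of counts gave 44.4 to 73.8 per gene in its pairs with them, against 13.3 to 41.8 in the pairs among the other 5. Without IFNG 5, 8 of the 10 genes described still rose, and the call of Parp1 was lost (log2 fold change -0.22, edgeR adjusted p = 0.0711). As a check of the labels, Ifng had a level of 11.1 ± 4.41 CPM in IFNG, against 0.0686 ± 0.0778 CPM in Control (SD, n = 6 each; CPM is a count as a share of its library, after scaling by the trimmed mean of M-values, TMM). The summed level of 15 neuron markers ran from 5183 to 6394 CPM in IFNG libraries and from 6826 to 7314 CPM in Control libraries, and 6 of the 15 fell. None of the 15 rose in edgeR, at an unadjusted p under 0.05 either, or in DESeq2 or limma-voom. At an unadjusted edgeR p under 0.05, 10 of the 15 fell. With libraries scaled by the counts of genes outside the rise, 1 rose and 3 fell. Over 22 alternative settings, 1 to 8 of the 15 fell at an adjusted p under 0.05. Of 10 tested astrocyte markers all 10 rose, by log2 fold changes of 0.41 to 1.73, and their list summed to between 4267 and 6915 CPM in IFNG libraries and between 2432 and 2724 CPM in Control libraries. In bulk RNA, fewer cells of a type and less RNA per cell cannot be told apart. Of 3 tested microglia markers 1 rose. Tmem119 was at 3 counts over all IFNG libraries and at 0 in Control, and the marker that rose, P2ry12, stood at 0.965 ± 0.420 CPM in IFNG, against 0.0719 ± 0.154 CPM in Control (SD, n = 6 each). Of 9 tested oligodendrocyte lineage markers 1 rose and 2 fell, and of 5 endothelial and mural markers 1 rose, with Cldn5 at 0 in both groups. No lymphocyte marker passed the filter, and Cd3d and Nkg7 were at 0. Over all genes tested in edgeR 14.3% rose and 9.79% fell at an adjusted p under 0.05. The part of these marker shifts in the results below was not tested.

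Of the 10 genes, 8 rose in IFNG cultures, 1 fell and 1 did not pass the test. Among all 15241 genes tested, 14.3% rose and 9.79% fell by the same rule (edgeR's quasi-likelihood test, Benjamini-Hochberg adjusted p under 0.05 over all genes). The groups did not overlap for 8 of the 10, all of them with every IFNG library above every Control library, a separation found in 8.75% of all genes tested. The median log2 fold change of the 10 was 4.01, against -0.02 over all genes tested. The 10 were not chosen blind to these data, which limits these comparisons. The rises fell into steps: Parp14 stood highest, Dtx3l, Parp9 and Parp10 followed, then Parp12 and Parp3, then Parp11, with Parp8 moving by less than 2-fold.

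**Figure D1:**
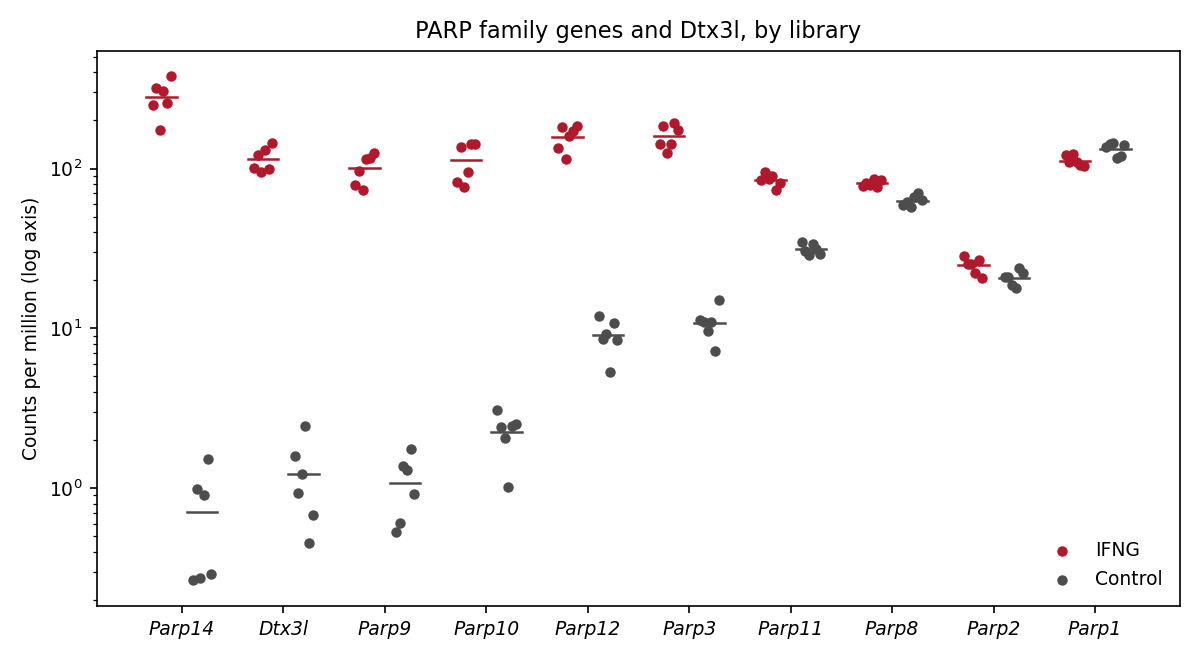
CPM (log axis) of the 10 genes in each library; points are the 6 IFNG libraries (red, left) and the 6 Control libraries (grey, right) and lines are group means. Parp14 lies between 175.5 and 379.9 CPM in IFNG libraries and between 0.264 and 1.53 CPM in Control libraries, while the groups of Parp1 and Parp2 overlap.

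Parp14 (ENSMUSG00000034422, GRCm38 chromosome 16, 35832874 to 35871544, minus strand) encodes a large mono-ADP-ribosyltransferase with macrodomains, known as a cofactor of STAT6 in interleukin-4 signalling. It had 3685, 10703, 3240, 4137, 6021 and 7748 counts in IFNG libraries 1 to 6, and 5, 18, 4, 16, 27 and 6 counts in Control libraries 1 to 6. Every IFNG library was far above every Control library, and the gene was barely expressed in Control. Its level was 281.3 ± 69.8 CPM in IFNG, against 0.707 ± 0.518 CPM in Control (SD, n = 6 each). The log2 fold change was 8.63 ± 0.30 (SE), or about 395-fold (edgeR adjusted p = 8.75e-15), the 54th largest of all genes tested.

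Dtx3l and Parp9 lie head to head near Parp14. Dtx3l (ENSMUSG00000049502, GRCm38 chromosome 16, 35926511 to 35939151, minus strand) is a deltex-family ubiquitin ligase, and Parp9 (ENSMUSG00000022906) spans 35938470 to 35972605 on the plus strand. GENCODE M21 places no protein-coding gene between Parp14 and Dtx3l, which are 54966 bp apart, so the 3 genes span 139732 bp. The exons of Dtx3l and Parp9 share 458 bp on opposite strands, 8.0% of the exonic length of Dtx3l and 9.40% of that of Parp9, and since the strand setting of the counting is not given, reads of that stretch are uncertain.

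Parp9 stood at 79.1, 96.8, 73.5, 114.8, 116.8 and 124.9 CPM in IFNG libraries 1 to 6, and at 0.528, 0.602, 1.37, 1.30, 1.75 and 0.921 CPM in Control libraries 1 to 6. Dtx3l stood at 101.4, 122.5, 95.0, 130.7, 99.1 and 144.9 CPM in IFNG libraries 1 to 6, and at 1.58, 0.930, 1.23, 2.43, 0.452 and 0.678 CPM in Control libraries 1 to 6. IFNG 3 was lowest and IFNG 6 highest for both genes, and both were near 1 CPM in Control. Their rises were alike in size: the log2 fold change of Parp9 was 6.56 ± 0.23 (SE; edgeR adjusted p = 9.53e-15) and that of Dtx3l was 6.57 ± 0.24 (SE; edgeR adjusted p = 2.77e-14).

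Parp10 (ENSMUSG00000063268, GRCm38 chromosome 15, 76231174 to 76243441, minus strand) encodes a mono-ADP-ribosyltransferase first described as a partner of the MYC protein. Its level was 82.9, 135.8, 76.3, 94.6, 142.5 and 143.5 CPM in IFNG libraries 1 to 6, and 3.06, 2.41, 2.05, 1.02, 2.43 and 2.52 CPM in Control libraries 1 to 6. IFNG libraries 2, 5 and 6 were the high ones, and Control 4 was the lowest of its group. The log2 fold change was 5.64 ± 0.23 (SE), about 49.7-fold (edgeR adjusted p = 8.58e-14). Parp10 shares 205 bp of exon with the neighbouring gene Plec, 4.795% of the exonic length of Parp10.

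Parp12 (ENSMUSG00000038507, GRCm38 chromosome 6, 39086410 to 39118349, minus strand) encodes a zinc-finger mono-ADP-ribosyltransferase with antiviral activity in cell culture. It stood at 133.8, 181.9, 114.9, 160.8, 172.9 and 184.5 CPM in IFNG libraries 1 to 6, against 11.9, 8.59, 9.15, 5.31, 10.7 and 8.43 CPM in Control libraries 1 to 6. IFNG 1 and IFNG 3 were again the low IFNG libraries. The rise was 4.13 ± 0.17 (SE) on the log2 scale, about 17.5-fold (edgeR adjusted p = 1.16e-13).

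Parp11 (ENSMUSG00000037997, GRCm38 chromosome 6, 127446840 to 127494261, plus strand) encodes a mono-ADP-ribosyltransferase found at the nuclear envelope. Unlike the genes above it was well expressed in Control: it stood at 84.6, 95.5, 86.0, 89.7, 72.9 and 81.5 CPM in IFNG libraries 1 to 6, and at 34.5, 30.4, 28.9, 33.5, 31.5 and 29.2 CPM in Control libraries 1 to 6. Its libraries were close within each group, and the log2 fold change was 1.44 ± 0.09 (SE), about 2.71-fold (edgeR adjusted p = 1.58e-10). The highest log2 fold change among the astrocyte markers, 1.73 for Aldoc, was of about that size; the part of that shift in the Parp11 value was not tested.

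Parp8 (ENSMUSG00000021725, GRCm38 chromosome 13, 116854820 to 117025537, minus strand) encodes a mono-ADP-ribosyltransferase whose function is little known. It stood at 81.1 ± 3.73 CPM in IFNG, against 62.9 ± 4.85 CPM in Control (SD, n = 6 each), from 77.1 to 86.0 CPM against 57.2 to 70.3 CPM. The log2 fold change was 0.37 ± 0.08 (SE), about 1.29-fold (edgeR adjusted p = 0.00232). Tested against a fold change of 1.2 it did not pass (edgeR adjusted p = 0.189).

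The genes of DNA repair did not move together. Parp3 (ENSMUSG00000023249, GRCm38 chromosome 9, 106470322 to 106476949, minus strand) stood at 142.2, 184.7, 125.0, 143.3, 191.7 and 175.5 CPM in IFNG libraries 1 to 6, and at 11.3, 10.9, 9.56, 10.9, 7.18 and 15.02 CPM in Control libraries 1 to 6. Every IFNG library was far above every Control library, and the log2 fold change was 3.89 ± 0.16 (SE), about 14.8-fold (edgeR adjusted p = 8.93e-14). Its exons share 20 bp with Rrp9 on the opposite strand.

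Parp1 (ENSMUSG00000026496, GRCm38 chromosome 1, 180568924 to 180601254, plus strand) stood at 121.2, 110.6, 122.7, 110.4, 105.0 and 103.8 CPM in IFNG libraries 1 to 6, and at 135.8, 142.5, 145.3, 116.7, 119.5 and 140.4 CPM in Control libraries 1 to 6. The groups overlapped: IFNG 1 and IFNG 3 lay above Control 4 and Control 5. The log2 fold change was -0.25 ± 0.09 (SE; edgeR adjusted p = 0.0393), about 0.842-fold. The call was near the threshold: without any one of Control 1, 2, 3 and 6 or IFNG 2, 4, 5 and 6 the log2 fold change was -0.24 to -0.22 and the call was lost (edgeR adjusted p = 0.0674 to 0.106). With libraries scaled by the counts of genes outside the rise the value was -0.14 (edgeR adjusted p = 0.278), a scaling on which 4.92% of all genes fell. The call was also lost with no filter on low counts, at -0.23, where 4.25% of genes fell, and against a fold change of 1.2, where 3.01% fell.

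Parp2 (ENSMUSG00000036023, GRCm38 chromosome 14, 50807841 to 50821301, plus strand) stood at 24.8 ± 2.95 CPM in IFNG, against 20.7 ± 2.17 CPM in Control (SD, n = 6 each). The ranges, 20.6 to 28.5 CPM against 17.9 to 23.8 CPM, overlapped, and the log2 fold change of 0.26 ± 0.11 (SE) did not pass (edgeR adjusted p = 0.112). On the scaling by genes outside the rise it was 0.37 and passed (edgeR adjusted p = 0.0241). That scaling leaves the genes that rose out of the library totals. On it 2954 of 15241 genes rose, against 2184 with TMM. Half-way values over the tested genes also moved up, from -0.02 to 0.10, so this call does not set Parp2 apart from a shift shared with other genes.

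**Figure D2:**
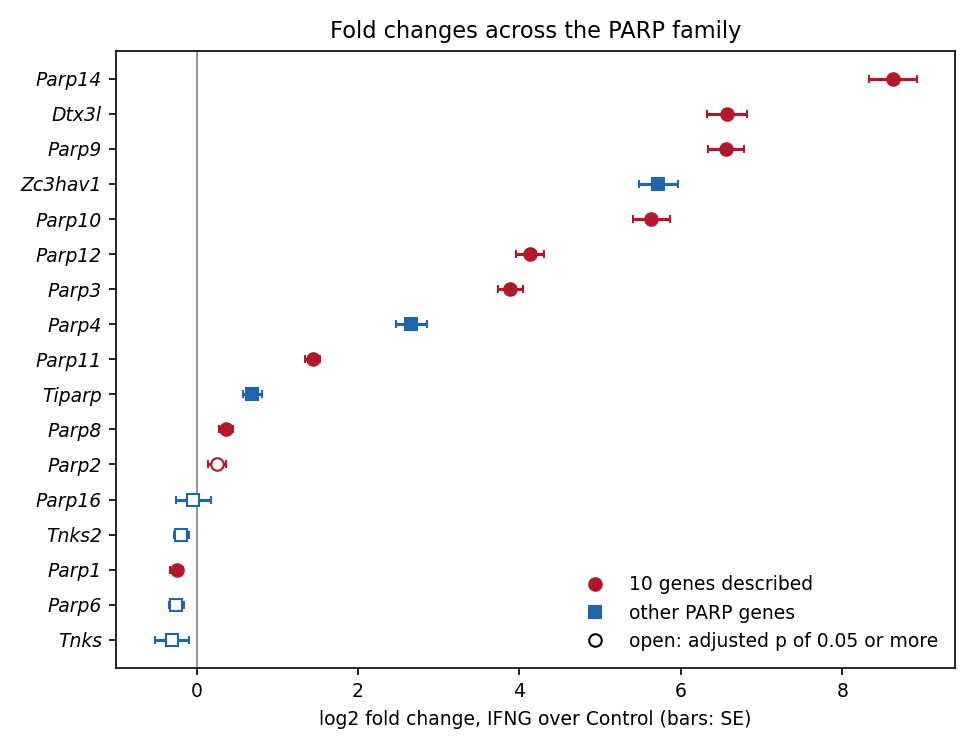
Log2 fold change of IFNG over Control for the 10 genes (red circles) and 7 other PARP family genes (blue squares), with standard errors; filled symbols have an adjusted p under 0.05. Values run from -0.31 for Tnks to 8.63 for Parp14, and Zc3hav1 and Parp4 lie among the genes described.

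Levels of different genes were compared per kilobase of annotated exon (CPM per kb). In IFNG libraries the order from high to low was Parp3 at 43.4 ± 7.33, Parp12 at 39.6 ± 7.03, Parp14 at 30.2 ± 7.50, Parp10 at 26.3 ± 7.33, Parp1 at 21.2 ± 1.51, Parp9 at 20.7 ± 4.36, Dtx3l at 20.2 ± 3.52, Parp11 at 12.1 ± 1.09, Parp8 at 9.13 ± 0.42 and Parp2 at 6.83 ± 0.81 CPM per kb (SD, n = 6). Neighbours from Parp3 down to Dtx3l overlapped between libraries, and neighbours from Dtx3l down to Parp2 did not. In Control libraries Parp1 led at 25.2 ± 2.32 CPM per kb, above every library of the next gene, Parp8, at 7.08 ± 0.55. Parp2 at 5.72 ± 0.60, Parp11 at 4.46 ± 0.33, Parp3 at 2.92 ± 0.69 and Parp12 at 2.26 ± 0.57 CPM per kb followed (SD, n = 6). Parp10, Parp9, Dtx3l and Parp14 were all under 1 CPM per kb in every Control library, and each overlapped the next in that order. Parp8 and Parp2, and Parp3 and Parp12, also overlapped in Control libraries.

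The make-up of the summed level of the 10 genes changed with it. The sum was 229.7 ± 31.5 CPM per kb in IFNG libraries and 48.7 ± 2.38 CPM per kb in Control libraries (SD, n = 6 each). Parp1 made up 9.47 ± 2.07% of it in IFNG libraries and 51.7 ± 2.97% in Control libraries. Parp14, Dtx3l and Parp9 together made up 30.8 ± 2.99% in IFNG libraries and 1.06 ± 0.41% in Control libraries, and Parp3 alone made up 18.9 ± 1.51% in IFNG libraries and 5.99 ± 1.30% in Control libraries.

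**Figure D3:**
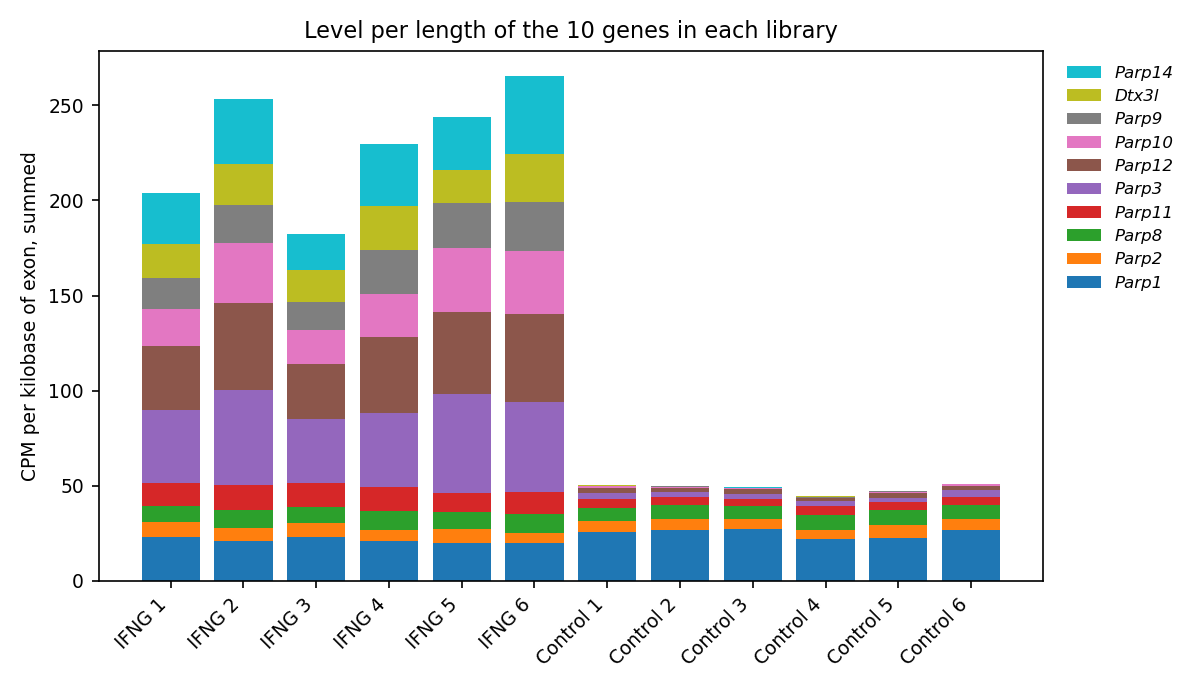
Summed level per kilobase of exon of the 10 genes in each library, stacked by gene, with the 6 IFNG libraries left of the 6 Control libraries. The IFNG sums run from 182.2 to 265.4 CPM per kb and the Control sums from 44.5 to 50.98 CPM per kb, where Parp1 is the largest part.

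The balance between pairs of genes was tested within each library, where library scaling cancels out. The log2 ratio of Dtx3l to Parp9 counts was 0.21 ± 0.23 in IFNG libraries and 0.09 ± 1.204 in Control libraries (SD, n = 6 each), a difference of 0.11 ± 0.50 (SE; exact two-sided permutation test, p = 0.846). The Control spread was wide, from -1.89 to 1.54, at 8 to 43 Dtx3l counts and 10 to 31 Parp9 counts a library, and the difference was smaller than its standard error.

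Parp14 gained on Parp9: the log2 ratio was 1.47 ± 0.23 in IFNG libraries and -0.79 ± 1.02 in Control libraries (SD, n = 6 each), a difference of 2.25 ± 0.43 (SE). Parp12 and Parp11 rose less than Parp9, with differences of -2.46 ± 0.36 and -5.17 ± 0.33 (SE) in their log2 ratios to Parp9. Each of these 3 differences reached the smallest p that 924 arrangements allow (exact two-sided permutation test, p = 0.00216; adjusted over 8 pairs, 0.00346). The difference for Parp10 to Parp9 was -0.96 ± 0.44 (SE) and did not pass (exact two-sided permutation test, adjusted p = 0.0816). Of the alternatives it passed only without Control 4, at -1.24 (exact permutation test, adjusted p = 0.00495). In the 14 others it did not pass, with an adjusted p of up to 0.139 when a library was left out (exact permutation test).

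Against Parp1, the other repair genes and Parp8 all stood higher in IFNG libraries. The log2 ratio of Parp3 to Parp1 was 0.50 ± 0.34 in IFNG libraries and -3.65 ± 0.31 in Control libraries (SD, n = 6 each), so that Parp3 counts exceeded Parp1 counts in all 6 IFNG libraries and in none of the Control libraries. The ratio of Parp2 to Parp1 differed by 0.50 ± 0.10 (SE; exact two-sided permutation test, adjusted p = 0.00577), although the Parp2 level alone did not pass. That of Parp8 to Parp1 differed by 0.61 ± 0.11 (SE; exact two-sided permutation test, adjusted p = 0.00346). Both ratios take in the Parp1 log2 fold change of -0.25, whose call was near the threshold, beside 0.26 for Parp2 and 0.37 for Parp8. They do not test Parp2 or Parp8 alone.

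**Figure D4:**
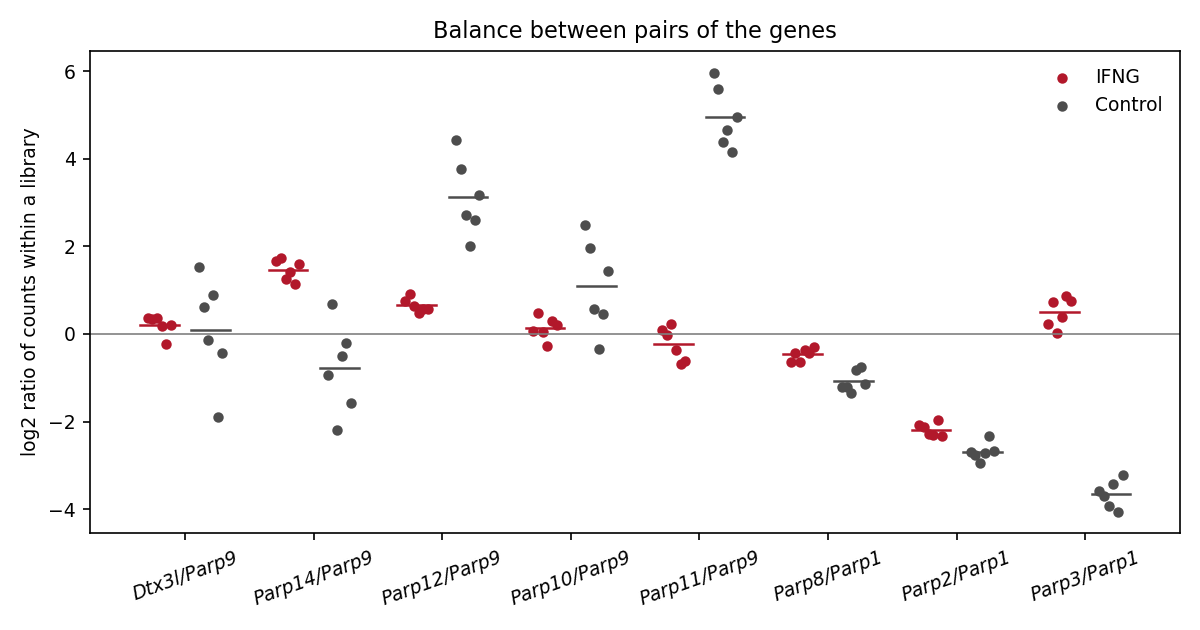
Log2 ratio of counts (plus 0.5) of 8 gene pairs within each library; points are the 6 IFNG libraries (red, left) and the 6 Control libraries (grey, right), and lines are group means. The Parp3 to Parp1 ratio runs from 0.03 to 0.87 in IFNG libraries and from -4.05 to -3.22 in Control libraries, while the Dtx3l to Parp9 ratios overlap.

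Promoter sequences of 7 of the 10 genes, in 8 windows from 250 bases before to 50 bases after a start, were in the RefSeq table of GRCm38.p6. They were searched on both strands for the core of the gamma-activated site, TTCNNNGAA, and the core of the interferon-stimulated response element, written GAAA, any 2 bases, GAAA. Of 32851 windows in the table, 8.30% held the first and 3.44% the second. Of the 8 windows of these genes 1 held either, the first of the 2 Parp11 windows, and it held both. The matches were TTTCGATTTC, the second core read on the other strand, at positions -44 to -35, and TTCTTGGAA at positions -37 to -29, so the 2 overlap. The windows of Dtx3l, Parp12, Parp8, Parp1, Parp2 and Parp3 held neither, which says only that these letters are not in them. The bases before the start are shown for Parp11, with the joint match in capitals, and for Parp3 and Parp1, the repair genes with the largest rise and with a fall, both without a match:
Parp11 (chr6:127446590-127446839, plus strand): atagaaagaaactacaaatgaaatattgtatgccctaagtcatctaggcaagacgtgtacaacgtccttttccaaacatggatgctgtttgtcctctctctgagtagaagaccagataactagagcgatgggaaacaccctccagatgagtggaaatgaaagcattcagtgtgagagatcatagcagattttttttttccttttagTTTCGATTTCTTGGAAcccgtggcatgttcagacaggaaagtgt
Parp3 (chr9:106476950-106477199, minus strand): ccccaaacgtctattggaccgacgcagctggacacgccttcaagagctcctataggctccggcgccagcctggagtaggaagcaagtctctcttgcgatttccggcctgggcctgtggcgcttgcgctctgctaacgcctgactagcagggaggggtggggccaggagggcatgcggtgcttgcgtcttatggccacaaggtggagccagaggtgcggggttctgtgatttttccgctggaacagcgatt
Parp1 (chr1:180568641-180568890, plus strand): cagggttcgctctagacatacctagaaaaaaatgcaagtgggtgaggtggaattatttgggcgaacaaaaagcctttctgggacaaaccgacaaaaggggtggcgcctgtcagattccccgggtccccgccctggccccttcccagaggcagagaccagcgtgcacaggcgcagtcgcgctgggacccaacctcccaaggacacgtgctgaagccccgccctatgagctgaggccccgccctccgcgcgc

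The genes whose profiles over the 12 libraries were nearest to those of the interferon-linked genes were found by Euclidean distance between centred log2 CPM profiles, among 13564 genes. The nearest to Parp9 were Tap1 and Casp12, at distances of 1.39 and 1.44. The nearest to Dtx3l were Ifih1 and C1s1, at distances of 1.63 and 1.73. Parp10 lay nearest to Tap2, Clec2d and H2-T22, and Parp12 nearest to Tapbp, Stat2 and Kcne1l, at distances of 0.90 to 1.36. Parp14 lay nearest to Trim30a, Slfn8 and Bst2, at distances of 1.66 to 2.05. Parp11 lay nearest to Crem, Zfp36l2 and Abhd4, at distances of 0.46 to 0.52. The profiles were not scaled, so distances grow with the size of a rise and do not rank likeness between the genes described. A small distance did not always mean a like fold change. Clec2d, near Parp10, had a log2 fold change of 9.69 ± 0.64 (SE). The profiles carried a prior count of 2 and the fold changes came from the edgeR fit, so distance and fold change are unlike measures.

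Among the 7 other PARP family genes, 3 rose and 4 did not pass, and their median was -0.04 on the log2 scale. Over all genes tested 14.3% rose by the same test. Zc3hav1, which encodes the antiviral RNA-binding protein ZAP, a PARP without enzyme activity, stood at 67.9 ± 14.0 CPM in IFNG, against 1.28 ± 0.659 CPM in Control (SD, n = 6 each), a rise of 5.72 ± 0.24 (SE; edgeR adjusted p = 2.21e-13). Parp4, the PARP of vault particles, rose by 2.66 ± 0.19 (SE; edgeR adjusted p = 1.49e-09), and Tiparp, a target of the aryl hydrocarbon receptor, by 0.69 ± 0.12 (SE; edgeR adjusted p = 0.00017). The tankyrase gene Tnks2, the most abundant that did not pass, stood at 253.9 ± 30.3 CPM in IFNG, against 288.9 ± 25.6 CPM in Control (SD, n = 6 each). Parp6 was at the edge of the threshold, at -0.25 ± 0.09 (SE; edgeR adjusted p = 0.0502).

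The other deltex genes did not share the rise of Dtx3l in the test: none of the 4 passed in edgeR, none had an unadjusted p under 0.05, and none passed in DESeq2 or limma-voom. Their log2 fold changes were between -0.00 for Dtx3 and 0.33 for Dtx2, with a median of 0.11, and 1 of the 4 rose on the scaling by genes outside the rise and in edgeR without Control 5.

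Of 8 tested genes whose enzymes remove or cleave ADP-ribose, 1 rose, 1 fell and 6 did not pass, and their median was 0.12 on the log2 scale. Over all genes tested the shares were 14.3% higher and 9.79% lower, so these counts alone do not set the list apart. The macrodomain hydrolase gene Macrod1 rose by 1.02 ± 0.19 (SE; edgeR adjusted p = 0.00042), and its relative Macrod2 fell by 0.56 on the log2 scale (edgeR adjusted p = 0.000975). Parg, which degrades ADP-ribose chains, stood at 39.5 ± 4.10 CPM in IFNG, against 40.6 ± 2.77 CPM in Control (SD, n = 6 each; edgeR adjusted p = 0.808). Adprh, the most abundant that did not pass, had a log2 fold change of 0.26 ± 0.10 (SE; edgeR adjusted p = 0.0549).

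NAD is the substrate of all active PARPs. Of 10 tested genes of NAD synthesis and transport, 3 rose, 2 fell and 5 did not pass, with a median of 0.42. Over all genes tested 14.3% rose and 9.79% fell by the same test. The counts of the NAD synthesis list moved with the setting: over the 22 alternatives 1 to 5 rose and 1 to 2 fell. In 13 of them 1 fell, among them the fits without IFNG 1, 2, 4 or 6 or Control 2, 4, 5 or 6. Nampt, the rate-limiting enzyme of NAD salvage, stood at 100.3 ± 9.61 CPM in IFNG, against 51.9 ± 7.79 CPM in Control (SD, n = 6 each), a rise of 0.95 ± 0.11 (SE; edgeR adjusted p = 8.73e-07). Nmnat2, which makes NAD in axons, stood at 118.9 ± 12.5 CPM in IFNG, against 182.8 ± 13.6 CPM in Control (SD, n = 6 each), and fell by 0.62 on the log2 scale (edgeR adjusted p = 2.26e-05). Nadk2, the mitochondrial NAD kinase, rose by 0.36 ± 0.11 (SE; edgeR adjusted p = 0.0154). The other NAD kinase gene, Nadk, had 0.22 ± 0.09 (SE; edgeR adjusted p = 0.091). Among 8 tested genes of other NAD consumers, Sarm1, an NADase of axon degeneration, fell by 0.37 and Sirt2, a deacetylase, rose by 0.31 on the log2 scale, and 6 did not pass, among them Sirt7 at 0.20 ± 0.12 (SE; edgeR adjusted p = 0.221). Both Nmnat2 and Sarm1 are known from neurons. In the same libraries 6 of 15 neuron markers fell and 9 did not pass, and 1 to 8 fell over the 22 alternatives. The part of that shift in the values of Nmnat2 and Sarm1 was not tested.

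Of 13 tested genes that work with Parp1 at broken DNA, 11 did not pass and 2 fell. Those 2 were Lig1, by 0.48, and Tdp1, by 0.43 on the log2 scale (edgeR adjusted p = 0.00264 and 0.00491). By the same test 9.79% of all genes fell. The median log2 fold change of the 13 was -0.04. None of them rose in edgeR, at an unadjusted p under 0.05 either, or in DESeq2 or limma-voom, and 1 rose on the scaling by genes outside the rise and in edgeR without IFNG 5, with or without Control 4. Against a fold change of 1.2 none of the 13 fell. Lig1 also seals DNA in replication. Of 12 markers of dividing cells 9 did not pass and 1 rose, Mcm6, by 0.41 on the log2 scale. The 2 that fell were Mki67, by 0.61, and Pcna, by 0.34 on the log2 scale. Over the 22 alternatives 0 to 1 of these markers rose and 0 to 2 fell. The part of dividing cells in the Lig1 value was not tested. Trip12, a ubiquitin ligase and the most abundant that did not pass, stood at 257.9 ± 33.4 CPM in IFNG, against 227.4 ± 19.9 CPM in Control (SD, n = 6 each).

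**Figure D5:**
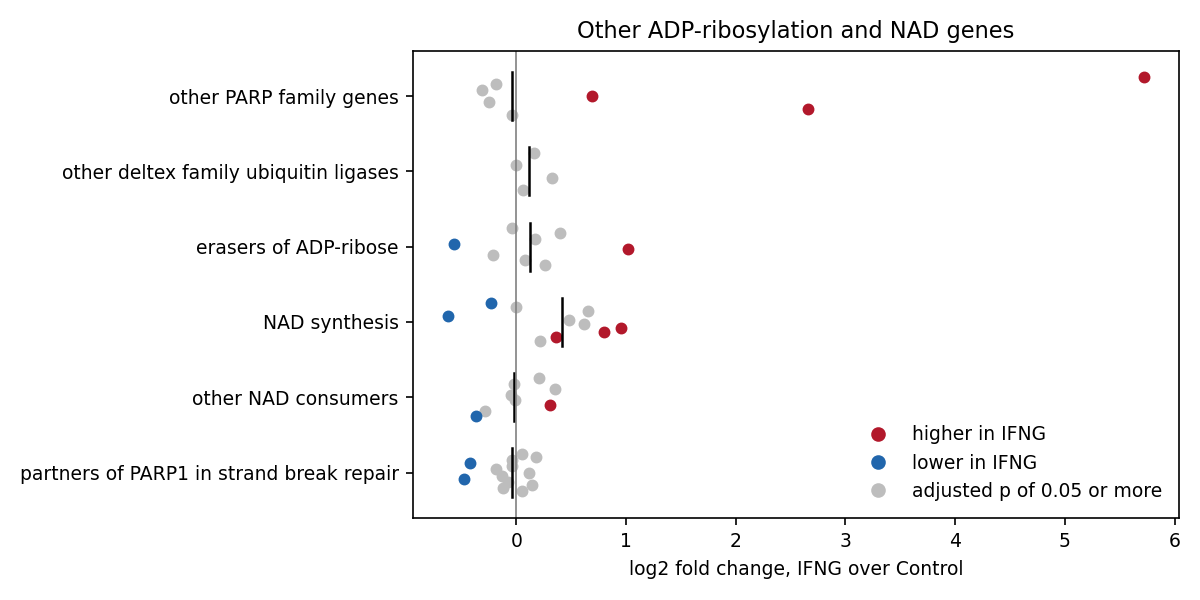
Log2 fold change of IFNG over Control for each tested gene of 6 lists of ADP-ribosylation and NAD genes; red and blue points have an adjusted p under 0.05 and black bars are list medians. Outside the PARP genes the values run from -0.62 for Nmnat2 to 1.02 for Macrod1.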

How the data were processed

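The authors deposited raw counts per Ensembl gene, not normalized, for 12 libraries. The submitters' processing notes name STAR 2.4, DESeq2 and the builds GRCm39 and mm10, with no role given. Strand setting, counter and annotation: not given in the sources used here. Symbols, coordinates and exonic lengths come from GENCODE M21 (GRCm38), which matched 42462 of 43629 identifiers; the rest held at most 0.158% of a library's counts. Listed symbols Adprs and Art2a had no row. No pair of libraries within a group agreed within sampling noise (chi-square per gene at least 7.04).

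IFNG was compared with Control in edgeR 4.0.16 (R 4.3.3): TMM, filterByExpr, two-sided quasi-likelihood tests and Benjamini-Hochberg adjusted p under 0.05 over 15241 genes, tested on simulated data first. SE is the log2 fold change over the root of F. Ratios of 8 pairs used counts plus 0.5 and exact permutation over 924 arrangements. Profiles used log2 CPM with a prior count of 2. Members and lists were chosen with earlier results of these data known. Genes are named by a rule: members, Ifng, up to 3 called genes with the smallest p per list and its most abundant gene not called, and 3 nearest profiles. Others (Parg, Parp6, Tnks, Tmem119, Dtx2 and Art3) were chosen after seeing values. Also outside the rule are Cldn5, Cd3d and Nkg7 (without counts), the other ectoenzyme genes Art1, Art2b, Art4 and Art5, and Plec and Rrp9 (shared exons). Some genes and lists that the rule covers are not reported here. Alternatives used DESeq2 1.42.0, limma-voom (limma 3.58.1), other scalings (among them totals of genes that did not rise), filters and left-out libraries.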

Additional observations from a re-analysis of the deposited data

Results flagged for a closer look

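IFNG 5 stood apart from the other IFNG libraries in the log2 ratio of Dtx3l to Parp9 counts, at -0.24, where the nearest of the other 5 was at 0.19; the gap was 0.699 of the range of the group. In that library Dtx3l stood at 99.1 CPM and Parp9 at 116.8 CPM. IFNG 5 also stood apart from the other IFNG libraries over all genes, with a chi-square of counts of 44.4 to 73.8 per gene in its pairs, against 13.3 to 41.8 in the other IFNG pairs. The ratio was the only value set apart among 36 groups of 6 libraries examined for the 10 genes and 8 ratios, and chance alone sets apart about 1 group in 20.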

How the results depend on the processing

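The rises of Parp14, Dtx3l, Parp9, Parp10, Parp12, Parp3 and Parp11 kept their direction and passed under all 22 alternatives, with log2 fold changes of 8.45 to 9.01 for Parp14 and 1.40 to 1.55 for Parp11. Over the 10 genes 207 of 220 recomputed values stayed on the same side of the threshold and none changed sign; 11 of the others were Parp1. The count of these genes that fell was 0 on library totals without the genes that rose, with no filter on low counts and against a fold change of 1.2, and 0 to 1 with a library left out; the cause was not tested. Without IFNG 5 and Control 4 together, an alternative chosen after seeing the data, no call of the 10 changed. Of all genes, 2184 rose and 1492 fell, or 59.4% higher; on totals without the genes that rose 2954 rose and 750 fell, or 79.8% higher, with the median of all genes at 0.10 in place of -0.02, and against a fold change of 1.2, 458 fell. The Dtx3l to Parp9 ratio difference ran from -0.29, without Control 5, to 0.40 with a library left out, and that of Parp10 to Parp9 from -1.24 to -0.68. Replicate numbers did not pair the libraries (correlations of same-numbered libraries -0.000964 to 0.124, best match in 2 of 6). With the replicate block 2114 of all genes rose and 1563 fell, and no call of the 10 genes or the 8 ratios changed. Of 704 counts over lists 626 stayed within 1.5 times. Parp14, Parp9 and Dtx3l had 4 to 43 counts in each Control library, which limits the precision of their Control levels.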

Other observations

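Art3, which encodes a relative of the cell-surface ADP-ribosyltransferases, was under the filter on low counts and was picked after its values were seen. It had 8 to 55 counts a library in IFNG, 163 in all, and 0 to 5 counts a library in Control, 9 in all. With no filter its log2 fold change was 3.87 (edgeR adjusted p = 0.000133), a setting in which 2319 of 27932 genes rose. Overlap of Art3 with other genes was not examined, and the strand setting of the counting is not given. The other 4 ectoenzyme genes with a row, Art1, Art2b, Art4 and Art5, averaged under 0.13 CPM in both groups.

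Ifng itself varied from 4.98 CPM in IFNG 3 to 17.9 CPM in IFNG 5, and the levels of the 10 genes were set against it over the 6 IFNG libraries, a comparison added after seeing the data. None of the 10 relations passed after adjustment over the 10 (exact permutation test, adjusted p for Pearson's r from 0.075 to 0.856 and for Spearman's rho from 0.167 to 0.919), and 5 had an unadjusted p for r under 0.05. The relation with the smallest p was that of Parp3, with r = 0.86 (exact permutation test, p = 0.0208) and rho = 0.94 (exact permutation test, p = 0.0167). Without IFNG 3 and IFNG 5, the libraries farthest from the median of Ifng, its r was 0.53. Parp1 had r = -0.85 (exact permutation test, p = 0.0347), and -0.71 without those libraries. With 6 libraries these are values to follow up, not relations shown.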
